A study of Mus musculus with 12 samples.

Results

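The genes described here are 10 mouse genes of bile acid handling and of transport at the hepatocyte membrane, out of 21938 protein-coding genes of GENCODE mouse release 21 on the chromosomes of mm10 (GRCm38). They were chosen by name and not by a rule on any value, but earlier results of these data were known at the choice. Every listed peak in the gene body and 20 kb on either side, called the window here, was taken. Abcb11, Abcb4, Abcb1a, Abcc2, Abcg5 and Abcg8 are pumps of the canalicular membrane, Slc10a1 and Slco1b2 are uptake carriers of the sinusoidal membrane, Slc51b is a subunit of a basolateral exporter, and Baat is a conjugating enzyme. ChIP-seq of LSD1, a histone demethylase that removes methyl groups from H3K4me1 and H3K4me2, was done in wild-type C57BL/6 liver, and ChIP-seq of H3K4me2, a mark of promoters and enhancers in use, was done in control and LSD1-LKO liver. LSD1-LKO mice were LSD1 fl/fl mice given AAV8-TBG-Cre as adults, and controls were LSD1 fl/fl mice given AAV8-TBG-GFP. The TBG promoter drives expression in hepatocytes, so Cre was directed to hepatocytes while the chromatin came from whole liver with all its cell types. The diet is not named for the ChIP-seq mice, and the study's methods describe high-fat feeding for its LSD1-LKO and control mice in general.

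Each of the 3 groups had 2 ChIP libraries and 2 control libraries, 12 samples in all. The control libraries are labelled as made with no antibody, whereas the methods name IgG. The lists hold no reads, so the depth of the libraries is unknown and no targeted-gene check of the knockout could be made from them, since LSD1 was precipitated only from wild-type liver. The labels number the replicates without saying whether each library came from its own mouse. Each list entry is a peak of one library, called first-listed here, with the overlapping peak of the other, called second-listed. Peak positions are those of the first-listed library. Peaks were ranked inside each list by the average of the −log10 p-values in the pair of libraries, and the rank is given as a percentile. A percentile within 1 library was taken in the same way from that library's peaks. Chromatin of whole liver cannot show whether a peak is missing from some cells or weaker in all of them, and these cannot be told apart here.

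Hepatocytes take up bile acids from sinusoidal blood, conjugate them to taurine or glycine, and pump them across the canalicular membrane into bile together with phospholipid, cholesterol and conjugated organic anions. The farnesoid X receptor, a nuclear receptor that senses bile acids, is known to act through inverted repeats of its recognition letters near several of these genes, Abcb11 and Slc51b among them. Loss of the canalicular bile salt pump or of the phosphatidylcholine floppase is known to cause cholestasis.

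Promoter sequences from RefSeq (GRCm38.p6, 250 bases before to 50 after a transcription start) were found for 9 of the 10 genes, in 11 entries. The 7 below are shown because the first 3 hold an inverted repeat, the next pair lay under LSD1 peaks, and the last pair had little or no listed H3K4me2 around the start in LSD1-LKO liver. Letters run 5′ to 3′ along the gene, and capitals mark every match to a searched motif.
Abcb11, chr2:69342567-69342866, minus strand: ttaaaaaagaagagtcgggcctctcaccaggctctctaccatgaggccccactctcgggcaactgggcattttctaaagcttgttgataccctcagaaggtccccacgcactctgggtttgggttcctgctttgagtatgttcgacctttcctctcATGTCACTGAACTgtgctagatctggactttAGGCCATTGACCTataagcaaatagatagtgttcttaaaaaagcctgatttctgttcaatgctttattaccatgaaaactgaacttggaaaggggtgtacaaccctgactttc
Slc51b, chr9:65422724-65423023, minus strand: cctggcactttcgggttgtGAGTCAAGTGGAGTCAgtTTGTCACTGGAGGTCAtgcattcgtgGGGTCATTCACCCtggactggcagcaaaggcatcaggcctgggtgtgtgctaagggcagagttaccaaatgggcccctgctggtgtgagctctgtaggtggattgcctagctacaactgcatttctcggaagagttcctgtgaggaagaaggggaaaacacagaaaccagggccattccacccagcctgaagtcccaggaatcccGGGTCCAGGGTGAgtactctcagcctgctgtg
Slco1b2, chr6:141629268-141629567, plus strand: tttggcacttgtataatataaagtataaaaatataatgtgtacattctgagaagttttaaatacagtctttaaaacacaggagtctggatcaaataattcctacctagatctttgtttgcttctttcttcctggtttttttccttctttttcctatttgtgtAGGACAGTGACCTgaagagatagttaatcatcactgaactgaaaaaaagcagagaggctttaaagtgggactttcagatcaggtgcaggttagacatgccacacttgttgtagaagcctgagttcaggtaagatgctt
Abcb4, chr5:8893471-8893770, plus strand: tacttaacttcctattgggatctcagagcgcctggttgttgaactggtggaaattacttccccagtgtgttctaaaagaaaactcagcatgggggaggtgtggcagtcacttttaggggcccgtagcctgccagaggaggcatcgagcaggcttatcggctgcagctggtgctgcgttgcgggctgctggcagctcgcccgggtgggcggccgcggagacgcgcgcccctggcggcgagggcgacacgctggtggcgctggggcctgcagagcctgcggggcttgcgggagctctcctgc
Abcg5, chr17:84682962-84683261, minus strand: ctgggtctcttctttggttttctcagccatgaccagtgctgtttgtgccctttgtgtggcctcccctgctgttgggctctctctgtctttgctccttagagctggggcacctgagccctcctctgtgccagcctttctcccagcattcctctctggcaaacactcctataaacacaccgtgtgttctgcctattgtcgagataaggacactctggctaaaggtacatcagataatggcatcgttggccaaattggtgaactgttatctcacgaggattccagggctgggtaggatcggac
Slc10a1, chr12:80968656-80968955, minus strand: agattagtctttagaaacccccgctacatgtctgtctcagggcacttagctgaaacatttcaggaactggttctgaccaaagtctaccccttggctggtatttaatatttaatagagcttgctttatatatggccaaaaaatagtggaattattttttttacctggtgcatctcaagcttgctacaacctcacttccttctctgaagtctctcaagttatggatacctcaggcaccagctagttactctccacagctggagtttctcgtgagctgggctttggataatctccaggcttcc
Abcc2, chr19:43782058-43782357, plus strand: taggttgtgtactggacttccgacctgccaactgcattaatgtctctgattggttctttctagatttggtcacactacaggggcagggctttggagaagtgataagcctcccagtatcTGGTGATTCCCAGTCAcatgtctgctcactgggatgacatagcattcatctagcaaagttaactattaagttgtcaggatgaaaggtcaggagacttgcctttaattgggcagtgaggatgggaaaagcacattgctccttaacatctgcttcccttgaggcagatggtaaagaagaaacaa

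The motifs searched on both strands were IR1, which is NGGTCA followed by 1 base and TGACCN and is the arrangement bound by the farnesoid X receptor, DR1 and DR4, which are NGGTCA repeated after 1 or 4 bases, CAAGGTCA for LRH-1 and CAAAGTCCA for HNF4A. Up to 1 mismatch was allowed in each repeat unit of IR1, DR1 and DR4 and none in the others, and matches may overlap. IR1 was found at 3 members, Abcb11, Slc51b and Slco1b2, against 6.56% of all 32851 RefSeq promoters. The Abcb11 promoter held IR1 as AGGCCATTGACCT at positions -63 to -51 relative to the start and as ATGTCACTGAACT at -94 to -82. In the Slc51b promoter IR1 read GGGTCATTCACCC at -187 to -175, and in the Slco1b2 promoter it read AGGACAGTGACCT at -88 to -76. The repeats at Abcb11 and Slc51b lay inside LSD1 peaks and the one at Slco1b2 did not. DR4 was found in 2 of the 11 entries, those of Slc51b and Abcc2, against 12.8% of all promoters, and DR1 in 1 entry, that of Slc51b, against 13.9%. LRH-1 and HNF4A letters were in none of the 11 entries, against 1.56% and 0.475% of all promoters. Among the 17 LSD1 peaks in the windows, the central 300 bases held IR1 in 5, against 7.43% of all 14584 LSD1 peaks. These matches describe letters only, and binding of any receptor was not measured.

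LSD1 was listed within 1 kb of an annotated transcript start at 6 of the 10 genes, Abcb11, Abcb4, Abcc2, Abcg5, Abcg8 and Slc51b. Among all protein-coding genes 24.6% had such a peak. All 10 genes were among the 13082 with control H3K4me2 listed within 1 kb of a start. Of those 13082, 5154 had LSD1 with H3K4me2 in both genotypes, and 65 had LSD1 with H3K4me2 in control only. Where both libraries had to reach a p-value of 0.01, 4 of the 10 genes had one, and the share over all genes was not computed. The peak shared by Abcg5 and Abcg8 missed that threshold in the second-listed library, with a −log10 p-value of 1.97. Where both libraries had to reach a p-value of 1e-05, 0 of the 10 genes and 5.68% of all genes had one. Without starts of transcripts that encode no protein, Abcc2 dropped out and 5 genes remained. H3K4me2 was listed there at 10 of 10 genes in control liver, against 59.6% of all genes, and at 9 of 10 in LSD1-LKO liver, against 59.8%. The exception was Slc10a1, the sodium-dependent bile acid carrier, whose promoter was listed in control only, as was true of 3.03% of all genes. Abcc2 counted in LSD1-LKO liver only through an internal start, with a peak centered at 15.7 kb and at percentile 4.59. With starts of protein-coding transcripts only, 1 start per gene or promoters of 2 kb, the LSD1-LKO counts were 8, 7 and 10. The control counts were 10, 9 and 10. At least 1 LSD1 peak lay in the window of 9 genes, against 51.5% of all genes, and Abcb1a had none. The windows had a median length of 81 kb against 57.4 kb over all genes, and those of Slc51b, Slc10a1 and Baat were shorter than that, which bears on every count of peaks in them.

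**Figure D1:**
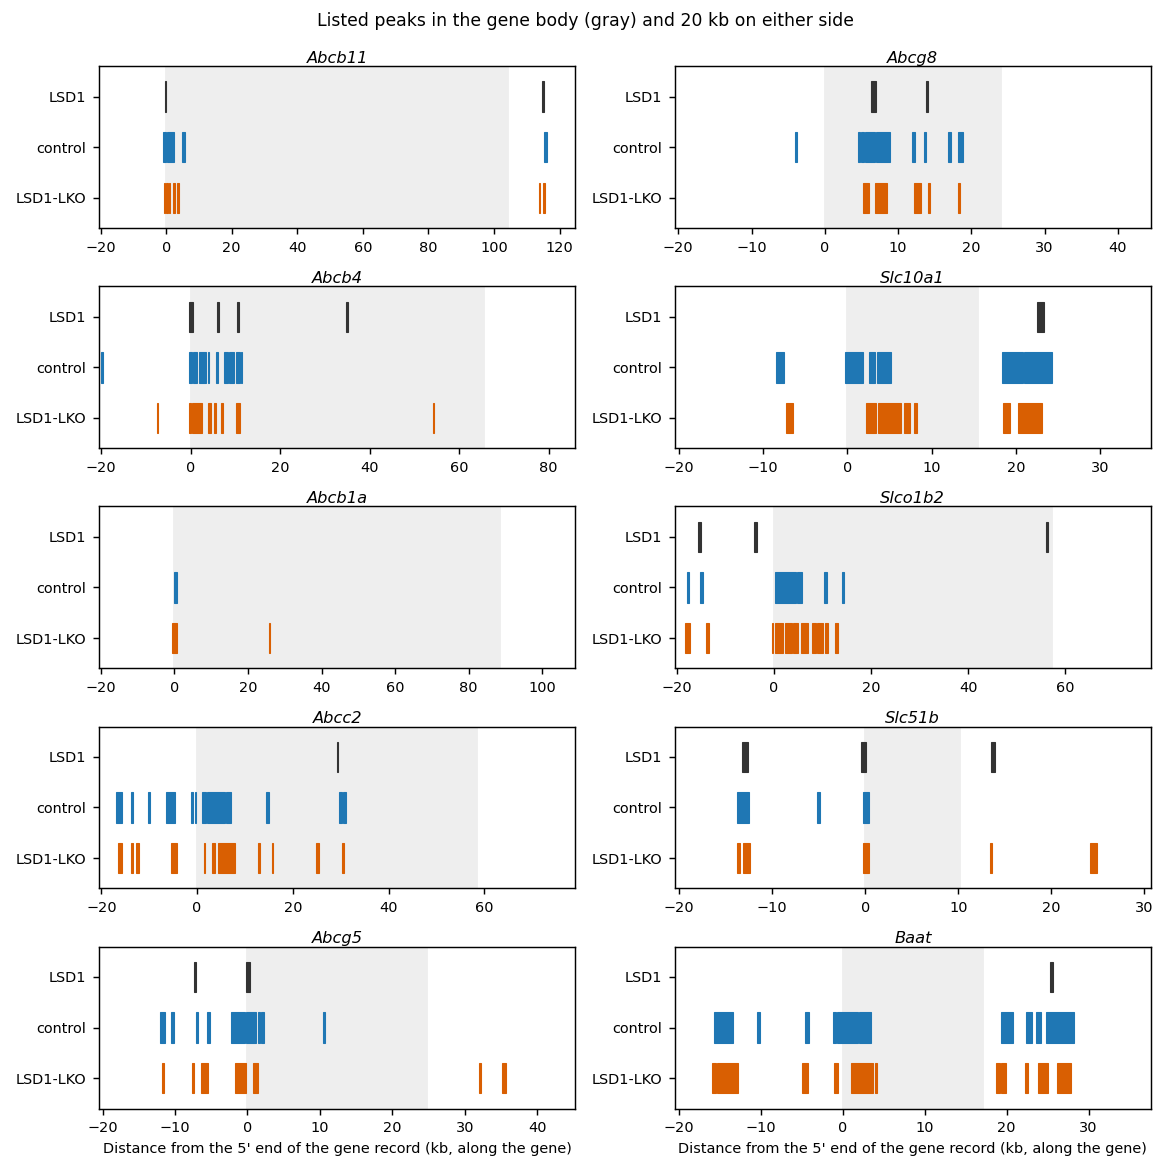
Listed peaks of LSD1 in wild-type liver (dark) and of H3K4me2 in control (blue) and LSD1-LKO liver (orange) by distance in kb from the 5′ end of each gene record, with the gene body in gray. H3K4me2 lies at the start of the gene in both genotypes at most genes. At Slc10a1 and Abcc2 peaks lie within 1 kb of the 5′ end in control only. The start shared by Abcg5 and Abcg8, at 0 in the Abcg5 panel, is nearly covered through in control and lies in a wider gap in LSD1-LKO. Peaks drawn are those of the first-listed library.

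In total 17 LSD1 peaks, 64 control H3K4me2 peaks and 69 LSD1-LKO H3K4me2 peaks lay in the windows, each counted once where windows overlap. The LSD1-LKO list was also the longer one as a whole, at 50675 peaks against 43891, so the higher count is not particular to these windows. By the first-listed library its peaks were narrower, with a median width of 565 against 648 bp. By the second-listed library they were wider, at 1240 against 1160 bp. Both differences bear on counts and covered lengths. The median gene had 2 LSD1 peaks, or 2.44 per 100 kb, against 0.39 per 100 kb for all genes. For genes with a control H3K4me2 promoter peak, as all 10 were, the median was 1.47 per 100 kb. Control H3K4me2 peaks covered a median of 8.79% of a member's window, with a range of 0.585% to 23.3%, against 2.87% over all genes and 5.14% over genes with a control H3K4me2 promoter peak. LSD1-LKO peaks covered a median of 6.68%, against 2.74% over all genes and 4.84% over genes with a control H3K4me2 promoter peak. The covered share differed more among the 10 genes than between genotypes, from the sparse Abcb1a window to the densely marked Baat and Slc10a1 windows.

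Abcb11, the bile salt export pump, carried the highest-ranking LSD1 promoter peak of the 10 genes. It lay at chr2:69342598-69343094, upstream of the start, with a fold enrichment over the control library of 5.57 (first-listed) and 3.2 (second-listed), at percentile 89.3. Both IR1 matches of the Abcb11 promoter were inside it. In control liver the mark flanked the start with a peak of 2112 bp on the gene side and one of 957 bp upstream, and first-listed peaks covered 428 bp of the LSD1 peak, against 331 bp in LSD1-LKO liver, while the second-listed peak of each genotype covered all of its 497 bp. The 2-kb region around the start was covered over 1803 and 1844 bp in the control libraries and over 1374 and 1884 bp in the LSD1-LKO libraries, so the groups overlapped. In LSD1-LKO liver the same stretch was split into 4 first-listed peaks that shared 1 second-listed peak, chr2:69340075-69343499. The promoter peak's percentile was 86.1 and 36.0 in the control libraries and 67.5 and 82.7 in the LSD1-LKO libraries. A second, low-ranking LSD1 peak 115.0 kb from the start, beyond the 3′ end, lay nearer to the start of G6pc2, at percentile 8.83.

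Abcb4, the floppase that delivers phosphatidylcholine to bile, held 4 LSD1 peaks, the most of the 10 genes. The promoter peak at chr5:8893400-8894278 spanned the start over 879 bp, with folds of 3.67 and 2.79 and percentile 60.4. All 300 bases of the promoter sequence printed above lay within it. Its central 300 bases also held the HNF4A letters CAAAGTCCA, in the transcribed part at chr5:8893854-8893862. The highest-ranking of the 4 peaks, at percentile 71.2, was intronic at 34.9 kb, chr5:8928463-8928779, where a shorter transcript without a protein is annotated, and no H3K4me2 peak of either genotype overlapped it. The other LSD1 peaks at 6.1 and 10.6 kb ranked at percentiles 24.6 and 40.0. Control H3K4me2 was listed in 9 peaks centered from the start to 11.4 kb and in 1 peak at -19.8 kb. The strongest control promoter peak, chr5:8894248-8895226, had folds of 6.79 and 7.92, and the strongest LSD1-LKO promoter peak, chr5:8893319-8893767, had folds of 5.54 and 9.31. In the window the mark covered 8119 and 11428 bp in the control libraries and 5260 and 10141 bp in the LSD1-LKO libraries. The groups overlapped. Farther into the gene, first-listed control peaks were centered at 5.9, 7.9, 9.2, 10.6 and 11.4 kb and LSD1-LKO peaks at 5.4, 7.1, 10.7 and 54.3 kb. In the second-listed control library 1 peak spanned 4 of the control peaks.

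Abcb1a, a P-glycoprotein that exports drugs and other amphipathic compounds, was the least marked of the 10 genes. Its window held no LSD1 peak, 1 control H3K4me2 peak and 2 LSD1-LKO peaks. The control peak began at the start of the gene record, chr5:8660072-8660823, with folds of 8.21 and 6.01 and percentiles of 99.2 and 73.2 in the control libraries. In LSD1-LKO liver the promoter peak was wider, 1325 bp at chr5:8659465-8660789, with folds of 4.66 and 4.53. The 2-kb start region was covered over 752 and 1101 bp in control against 1325 and 1515 bp in LSD1-LKO liver, so both LSD1-LKO libraries were above both control libraries. The RefSeq start of Abcb1a lies 93 kb upstream, outside the window, and no list covered any of the 2 kb around it.

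Abcc2, the canalicular exporter of bilirubin glucuronides and other conjugates, had 14 control H3K4me2 peaks, the most of the 10 genes, and 11 in LSD1-LKO liver. Its LSD1 peak, chr19:43811323-43811605, lay 29.3 kb inside the gene, near the start of a shorter transcript, with folds of 2.6 and 3.69, and no peak was listed at the main start. The 2 kb around the main start were covered over 437 and 1278 bp in the control libraries and over 0 and 111 bp in the LSD1-LKO libraries, and the groups did not overlap. Around the RefSeq start the same values were 405 and 1278 bp against 0 and 227 bp. The control peaks upstream of the start, chr19:43780826-43781337 and chr19:43781685-43781975, overlapped no first-listed LSD1-LKO peak, whereas the large intronic domain at 3.7 to 6.9 kb was listed in both genotypes, with an LSD1-LKO peak of 3692 bp. The promoter peak counted for Abcc2 in LSD1-LKO liver was at an internal start 15.7 kb downstream and ranked low, at percentile 4.59.

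Abcg5 and Abcg8, the 2 subunits of the sterol exporter, are divergent genes with RefSeq starts at chr17:84683011 and chr17:84683121, and they share 1 LSD1 promoter peak at chr17:84682636-84683251. The peak lay over both starts, with folds of 4.36 and 2.14 and percentile 59.5, and its libraries differed, at percentiles 87.7 and 8.44. H3K4me2 covered 535 and 616 bp of this 616-bp LSD1 peak in the control libraries and 108 and 616 bp in the LSD1-LKO libraries. The first-listed control peaks left a gap between chr17:84683170 and chr17:84683283, and the first-listed LSD1-LKO peaks left a wider one between chr17:84682295 and chr17:84683144. The second-listed library of each genotype bridged the gap with 1 broad peak. Accordingly the 2 kb around the Abcg5 start were covered over 1889 and 2001 bp in the control libraries and over 1153 and 2001 bp in the LSD1-LKO libraries, and the groups overlapped. The values around the RefSeq start of Abcg8 were the same. The flanking promoter peak on the Abcg8 side ranked high in both genotypes, with percentiles of 88.0 and 77.8 in control against 93.6 and 86.0 in LSD1-LKO liver. A second LSD1 peak inside Abcg8, chr17:84690059-84690351, at percentile 60.7, was covered by H3K4me2 over 107 and 293 bp in the control libraries and over 0 and 141 bp in the LSD1-LKO libraries, which overlapped. The GENCODE record of Abcg8 begins 6.82 kb upstream of the start shared with Abcg5, and that outer start was unmarked in all 3 lists.

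**Figure D2:**
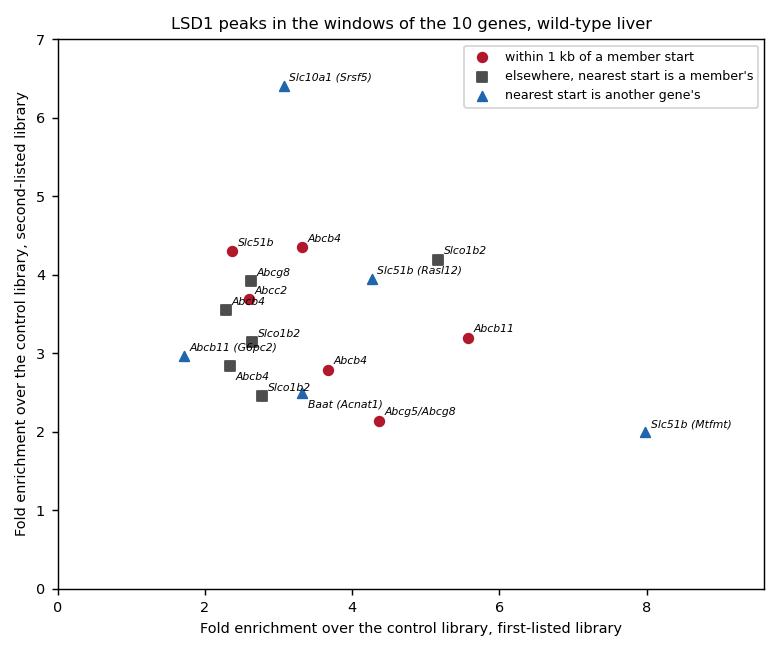
Fold enrichment over the control library of the 17 LSD1 peaks in the windows, with the first-listed library on the x axis and the second-listed library on the y axis, with each peak named by the gene of the nearest start, in parentheses where that gene is not one of the 10. The distal Slco1b2 peak was high in both libraries (5.17 and 4.19), while the Abcb11 promoter peak (5.57 and 3.2) and the peak near Mtfmt (7.98 and 1.99) stood out in the first-listed library.

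Slc10a1, which imports conjugated bile acids with sodium, had no LSD1 peak nearer to it than to another gene. The only LSD1 peak of its window, chr12:80945429-80946229, was centered 244 bp from the start of the neighbouring splicing factor gene Srsf5 and had folds of 3.07 and 6.41 and percentile 94.5. Control liver carried a 2230-bp H3K4me2 promoter peak at chr12:80966814-80969043, with folds of 5.12 and 6.12 and percentiles of 83.8 and 69.3. In LSD1-LKO liver the nearest peak on the gene side ended at chr12:80966536, so it reached neither RefSeq start. The 2 kb around the outer start were covered over 1339 and 290 bp in the control libraries and over 0 bp in both LSD1-LKO libraries, and around the inner RefSeq start over 1965 and 916 bp against 0 and 0 bp. The groups did not overlap at either start. Elsewhere in the locus the mark was listed in both genotypes, and the intronic peaks shared 1505 and 700 bp. Over the whole window the covered length was 11318 and 9415 bp in control against 9493 and 9122 bp in LSD1-LKO liver, which overlapped. With a promoter of 2 kb on either side of a start, the LSD1-LKO intronic peak counted and the promoter of Slc10a1 was marked in both lists.

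Slco1b2, a sodium-independent organic anion carrier of the sinusoidal membrane, had 3 LSD1 peaks and none at its promoter. The upstream peak at -15.4 kb, chr6:141613774-141614471, ranked at percentile 89.5, with folds of 5.17 and 4.19, and was the strongest LSD1 peak assigned to the gene. H3K4me2 covered 297 and 256 of its 698 bp in the control libraries and 0 and 592 bp in the LSD1-LKO libraries, so the LSD1-LKO libraries lay on either side of control. The other LSD1 peaks, at -3.9 kb and at 56.2 kb near the 3′ end, had no H3K4me2 in either list. Within the gene the mark extended from the start into the gene in both genotypes, with the last peak centered at 14.2 kb in control and at 12.8 kb in LSD1-LKO liver. The window held 7 control peaks over 7513 and 14045 bp and 11 LSD1-LKO peaks over 11102 and 14720 bp, and the groups overlapped. Its promoter percentiles were 63.9 and 47.0 in control against 93.6 and 58.2 in LSD1-LKO liver. These are from peaks at an internal start, centered at 5.2 and 6.2 kb. The highest-scoring peaks at the main start were at 51.2 and 53.3 in control and at 75.6 and 54.2 in LSD1-LKO liver. Those values did not overlap.

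Slc51b, the beta subunit of the organic solute transporter that returns bile acids to blood, had LSD1 and H3K4me2 at its start. The LSD1 promoter peak, chr9:65422821-65423364, had folds of 2.37 and 4.3 and percentile 57.0 and held the IR1 match printed above. The start lay under an H3K4me2 peak of 590 bp in control liver, with folds of 4.1 and 4.28, and under one of 649 bp in LSD1-LKO liver, with folds of 3.69 and 4.3. Their percentiles were 65.9 and 47.3 in control against 64.8 and 47.5 in LSD1-LKO liver, the closest pairs of values among the genes listed in both. The other LSD1 peaks of the window lay nearer to other genes. The one at chr9:65435544-65436222 was centered 95 bp from the start of Mtfmt, with folds of 7.98 and 1.99, and the one at chr9:65408976-65409464, at percentile 77.4, was nearest to Rasl12.

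Baat, which joins bile acids to taurine or glycine, was densely marked by H3K4me2 without an LSD1 promoter peak. Control peaks covered 23.3% of its window and LSD1-LKO peaks 20.3%. Around the start, chr4:49506557, the 2-kb region was covered over 1808 and 2001 bp in control against 406 and 2001 bp in LSD1-LKO liver, and the first-listed LSD1-LKO peaks ended at chr4:49505549 and resumed at chr4:49507152. The second-listed LSD1-LKO peak bridged that interval, so the groups overlapped. The LSD1 peak of the window, chr4:49480939-49481229, lay beyond the 3′ end of Baat, nearer to Acnat1, at percentile 39.5, inside a 3406-bp control H3K4me2 peak. LSD1-LKO peaks covered 0 bp of it in the first-listed library and 290 of its 291 bp in the second-listed one. The highest-ranking H3K4me2 peaks of the window were at the shared start region of Mrpl50 and Zfp189 and not at Baat.

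H3K4me2 covered 66576 bp of the joined windows in control liver and 59834 bp in LSD1-LKO liver, which is 89.9% of control, against 97% over the joined windows of all protein-coding genes. By the second-listed library the value was 96.4%, so the ratio depended on the library. By the first-listed libraries, covered length was lower in LSD1-LKO than in control liver at 7 of the 10 genes, against 56.3% of all genes with any H3K4me2 in the window. The median gene had 82.8% of its control length, with a range from 60.5% at Abcg8 to 213% at Abcb1a, against a median of 94.8% over all genes. The 3 genes with more covered length in LSD1-LKO liver were Abcb1a, Slco1b2 at 148% and Slc51b at 120%. LSD1-LKO minus control length was -2859 and -1287 bp at Abcb4 in the first-listed and second-listed libraries, -2788 and -3070 bp at Abcc2, and -2516 and -3887 bp at Abcg8, so the order of these genes depended on the library. Such comparisons follow the order of libraries in the lists and not a known match between them. At Abcb4 the libraries of the 2 groups overlapped, so its 2 negative values are no repeated loss. At Abcc2 and Abcg8 the groups did not overlap. By the second-listed libraries 6 genes were below control, Abcb11 being above it at 156%, and the median was 94.5%. The values over all genes in this paragraph are by the first-listed libraries. They are no background for the second-listed values, for which none was computed.

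The libraries separated the genotypes at few of the genes. Both LSD1-LKO libraries were below both control libraries in window covered length at 2 of 10 genes, Abcc2 and Abcg8, against 13.6% of genes tested, and above them at 1, Abcb1a, against 17.2%. The Abcc2 values were 12419 and 15091 bp in control against 9631 and 12021 bp in LSD1-LKO liver. Those of Abcg8 were 6374 and 9228 bp against 3858 and 5341 bp, and those of Abcb1a were 752 and 1101 bp against 1602 and 2083 bp. In the 2-kb start region, 9 genes had some coverage, both LSD1-LKO libraries were lower at 2, Abcc2 and Slc10a1, against 16.8%, and higher at 1, Abcb1a, against 14.3%. These shares are close to those of all genes. At Slc10a1 the 0 bp in both LSD1-LKO libraries reflects the lack of a peak found in both, and not 2 separate readings. With 2 libraries per group the exact permutation test cannot give a two-sided p below 0.333, which is the value obtained at the start regions of Abcc2, Slc10a1 and Abcb1a, so no gene could pass a threshold of 0.05.

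**Figure D3:**
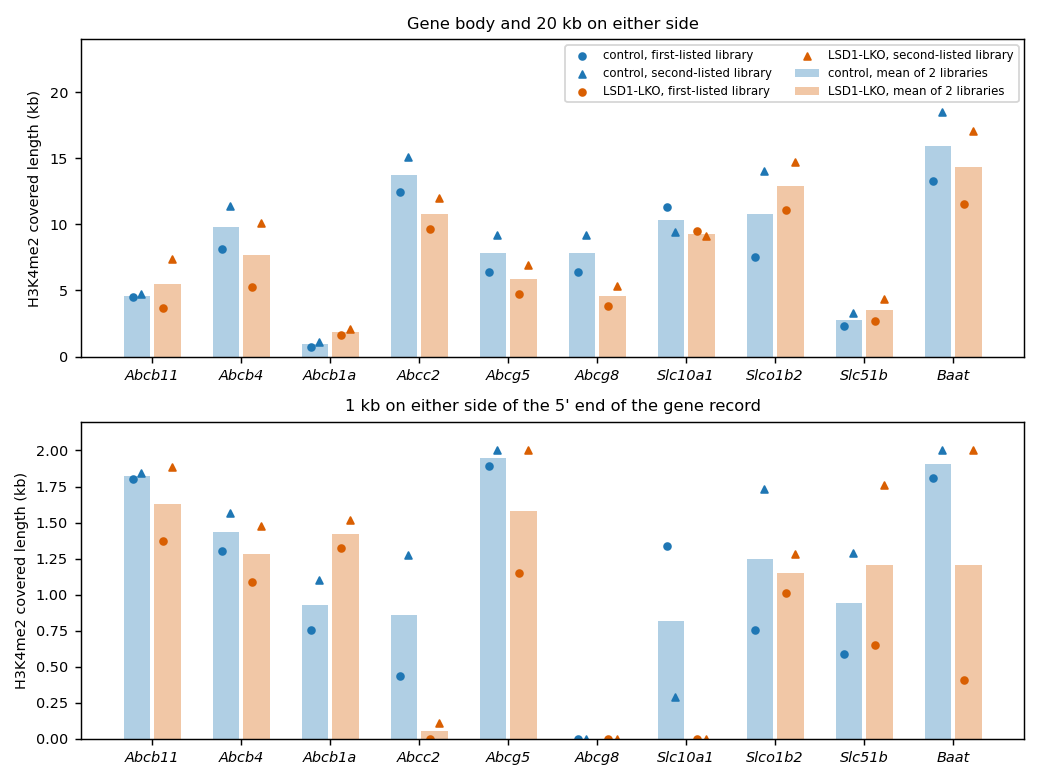
Length covered by H3K4me2 peaks in kb in the window (upper panel) and in the 2 kb around the 5′ end of the gene record (lower panel), with bars for the mean of the 2 libraries of a group and symbols for each library. In the lower panel both LSD1-LKO values of Abcc2 and Slc10a1 lie below both control values, and those of Abcb1a above. Abcg8 is at 0 there because its record begins upstream of the start shared with Abcg5.

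Ranks, like lengths, separated the genotypes at few of the genes. Of the 9 genes with an H3K4me2 promoter peak in both lists, 1 had both LSD1-LKO percentiles below both control percentiles, against 15.9% of 12417 genes tested, and 0 had both above, against 17.4%. The gene with lower percentiles was Abcc2, at 35.4 and 38.7 in control against 22.9 and 6.52 in LSD1-LKO liver. The peaks compared there lie at different starts of the gene, as given above. At Baat the compared peaks also lie at different starts, and at Slco1b2 both lie at an internal start. With 1 start per gene, 1 gene had both LSD1-LKO percentiles above both control percentiles. Ranked by fold enrichment in place of the p-value, 2 genes were above. At Abcb11 the control libraries differed by more from each other than either did from the LSD1-LKO libraries.

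**Figure D4:**
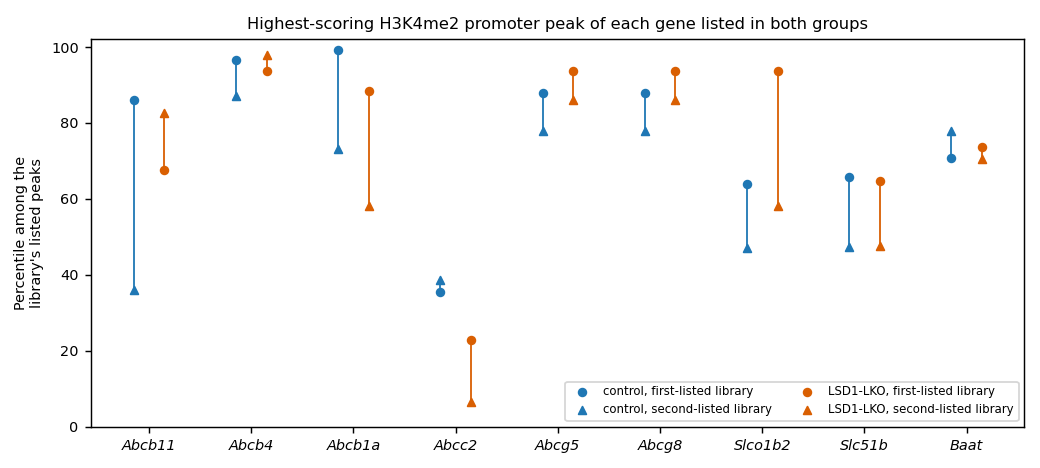
Percentile of the highest-scoring H3K4me2 promoter peak among all listed peaks of its library, for the 9 genes listed in both genotypes, with circles for the first-listed and triangles for the second-listed library and a line joining the libraries of a group. The ranges of control and LSD1-LKO overlap at every gene shown but Abcc2. The peaks compared lie at different starts at Abcc2 and Baat, and at an internal start at Slco1b2.

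The 17 LSD1 peaks of the windows were overlapped by control H3K4me2 in 11 cases, or 64.7% (95% Wilson interval 41.3% to 82.7%), against 52.5% of the whole LSD1 list. LSD1-LKO H3K4me2 overlapped 9 of them, or 52.9% (31.0% to 73.8%), against 53.8% of the whole list. With second-listed H3K4me2 peaks the counts were 11 in control and 12 in LSD1-LKO liver. By length, control peaks covered 54.6% and 63.5% of the LSD1 peak bases in the first-listed and second-listed library, and LSD1-LKO peaks covered 38.3% and 67.5%. Over the whole LSD1 list these values were 46.7% and 56.0% in control against 44.4% and 59.9% in LSD1-LKO liver. In the first-listed libraries the LSD1 peaks of the windows thus had less H3K4me2 in LSD1-LKO liver, and in the second-listed libraries they had more. Among the H3K4me2 peaks themselves, 67.2% of the 64 control peaks overlapped an LSD1-LKO peak, against 68.1% of the whole list, and control H3K4me2 lay over 62.3% of the 69 LSD1-LKO peaks, against 64.1%. The intervals cover counting error only.

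By the first-listed libraries, the 6 genes with an LSD1 promoter peak had a median LSD1-LKO covered length of 76.1% of control, with a range of 60.5% to 120%, and 5 of the 6 were below control. The 4 genes without one had a median of 117%, with a range of 83.9% to 213%, and 2 of the 4 were below. By the second-listed libraries the medians were 84.2% (57.9% to 156%) and 101% (92.1% to 189%), with 4 of 6 and 2 of 4 genes below control. Abcg5 and Abcg8 share most of their windows and so are not separate cases. Over all genes the medians by the first-listed libraries were 94.1% with and 95.1% without an LSD1 promoter peak. No such medians over all genes were computed by the second-listed libraries. A listed peak of all 3 kinds within 1 kb of some start of the gene, not always the same start, was found at 6 of the 10 genes and at 23.5% of all genes. At Abcc2 the peaks of the 3 kinds did not share a start, and no H3K4me2 peak overlapped its LSD1 peak. H3K4me2 in both genotypes without LSD1, as at Abcb1a, Slco1b2 and Baat, was carried by 33.1%, and control H3K4me2 alone, as at Slc10a1, by 2.73%.

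The other genes of the pathway were described as lists. Of 12 bile acid synthesis genes, 6 had an LSD1 promoter peak, 11 a control and 11 an LSD1-LKO H3K4me2 promoter peak. By the first-listed libraries, 6 of 12 windows were covered less in LSD1-LKO liver, against 56.3% of all genes with any H3K4me2 in the window. The highest-ranking LSD1 promoter peaks were those of Slc27a5, a bile acid CoA ligase, at percentile 89.1, Scp2, a peroxisomal thiolase and sterol carrier, at 79.1, and Cyp27a1, the sterol 27-hydroxylase, at 78.8. The promoter of Cyp7a1, the rate-limiting enzyme of bile acid synthesis, was listed in control only, with folds of 4.1 and 5.04, and that of Cyp8b1, the sterol 12-alpha-hydroxylase, in LSD1-LKO liver only, with folds of 5.17 and 5.67. Of all genes, 3.03% were listed in control only. In LSD1-LKO liver only, 0.442% were listed with an LSD1 promoter peak and 2.73% without one. The study reports that mRNA of both enzymes was unaltered in LSD1-LKO liver. Of 12 regulators, 5 had an LSD1 promoter peak and 12 were marked by H3K4me2 in both genotypes. Nr0b2, the small heterodimer partner, ranked highest at percentile 88.9, followed by Nr1h4, the farnesoid X receptor, at 75.2 and Nr5a2, LRH-1, at 43.6. Of 13 other transporters, 5 had an LSD1 promoter peak, among them Abcc6 at percentile 77.2 and Slc22a7, an organic anion carrier, at 44.5, and 12 were marked in each genotype. Slc51a, the alpha subunit that pairs with the product of Slc51b, had no H3K4me2 promoter peak in either genotype. By the first-listed libraries, the median covered length in LSD1-LKO liver was 99.9% of control for synthesis genes, 90.6% for regulators and 97.5% for other transporters.

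The tissue label was checked against cell type markers. Of 8 hepatocyte markers, 7 had a control H3K4me2 promoter peak and Cps1 did not, while 0 of 5 Kupffer cell markers, 2 of 5 cholangiocyte markers, 2 of 4 endothelial markers and 1 of 4 stellate cell markers had one. By the first-listed libraries, the windows of all 8 hepatocyte markers were covered less in LSD1-LKO than in control liver. The share was 56.3% over all genes with any H3K4me2 in the window. The median of the 8 was 72.2% of control, and control peaks covered 6.46% to 30.5% of a window. Second-listed values were not computed for these markers. Whether the lower covered length at the transporter genes moves with that of hepatocyte genes in general was not tested.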

How the data were processed

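LSD1 ChIP-seq in wild-type liver and H3K4me2 ChIP-seq in control and LSD1-LKO liver were analysed as 3 deposited peak lists. The authors mapped reads to mm10 with Bowtie 2, called narrow peaks in each library with MACS2 and intersected the 2 libraries of a group with BEDtools, without pooling. The version of BEDtools, 2.25.0, is from the submitters' processing notes. The deposited fold enrichment is a ratio of ChIP to control signal, and the −log10 p-value of each peak is the authors' MACS2 output. Some listed p-values are above the threshold of 0.01 named in the methods. Besides these, 12 columns of integer scores and summit offsets were not used.

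Overlaps of at least 1 bp were counted with promoters, taken as 1 kb in both directions from any GENCODE release 21 transcript start, and with windows of the gene body and 20 kb on either side. Scores were compared between lists only as percentiles within a library. Analyses used Python 3.11.15 and its packages pandas 2.3.3, numpy 2.4.6, scipy 1.17.1 and pysam 0.24.0, figures were drawn with matplotlib 3.10.9, and overlaps were checked with BEDtools 2.31.1 and the interval and motif code on simulated data.

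The named genes are the 10 members, the 3 genes of each pathway list with the highest-ranking LSD1 promoter peak, any gene of those lists whose promoter was in 1 H3K4me2 list only, and neighboring genes nearest to a described peak. A gene that this rule names is not reported here. Cps1 and Slc51a were named after their values were seen. The members and lists were chosen with earlier results of these data known. Alternatives were a p-value at or below 0.01 or 1e-05, positions and scores of 1 library only, an overlap of 50%, promoters of 2 kb, 1 TSS per gene, flanks of 10 and 50 kb, joined peaks and percentiles by fold. Starts of protein-coding transcripts only and peaks nearest to a member are 2 alternatives that were added after seeing the data.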

Additional observations from a re-analysis of the deposited data

How the results depend on the processing

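The results were recomputed under 13 alternative settings, which gave 92 values. Of these, 73 stayed within 1.5 times the reported count or, for shares, within a spread. For the overlap of LSD1 peaks the spread was the Wilson interval given above. For covered length it was the standard deviation of the values from 1 library only, 89.9% and 96.4%. The first of these equals the main value, so the second counts as moved by construction. Where each library had to reach a p-value of 1e-05, 0 genes had an LSD1 promoter peak, 1 LSD1 peak was left in the windows and 0% of LSD1 peaks overlapped control H3K4me2, 27 control and 21 LSD1-LKO H3K4me2 peaks were left, the LSD1-LKO covered length was 79.1% of control, and 0 genes had lower promoter percentiles in LSD1-LKO liver. Fewer peaks pass that setting by its construction. With a flank of 50 kb, 109 LSD1-LKO peaks were counted and the covered length was 94.8% of control, since the windows are longer. Leaving out 1 library of each group gave 89.9% to 96.4% for the covered length, 2 to 5 genes with lower and 4 to 7 with higher percentiles, since 1 library per group leaves no spread to clear. Without the second-listed library the covered length and the counts of peaks equal the main values by construction, because positions are those of the first-listed library. These are among the 73 values that stayed. Either way only peaks found in both libraries were used. The genes with lower percentiles numbered 0 with an overlap of at least 50% and 0 with starts of protein-coding transcripts only, and those with higher percentiles numbered 3 with an overlap of at least 50%, 1 with 1 TSS per gene and 2 with percentiles by fold enrichment. The cause was not tested. Presence of promoter peaks was steadier, with 4 to 6 genes for LSD1, 9 or 10 for control and 7 to 10 for LSD1-LKO H3K4me2 under the other settings.

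No paired analysis was possible because the lists carry no replicate numbers, so a control library cannot be matched to an LSD1-LKO library. Depth is unknown, and the lists leave out peaks called in 1 library only.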
